A study of Mus musculus with 4 samples.

Results

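Rab genes encode small GTPases that label membranes inside the cell, and 59 of them were read for H3K27ac in mouse Th17 cells. H3K27ac is acetylation of a lysine in the tail of histone H3, a mark of promoters and enhancers in use. Membership was set by gene symbol, over all protein-coding genes of chromosomes 1 to 19 and X in RefSeq (GRCm38). The symbol is Rab followed by a number and, where there is one, a letter or digit. This family, and the grouping by role used below, were chosen with earlier results of these data known. The Rab genes are 59 of 21631 protein-coding genes. For each, the H3K27ac peaks overlapping the gene or 20000 bp on each side of it were taken, a stretch called the window here.

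The cells were naive CD4+ T cells of C57BL/6 mice, cultured as Th17 cells over 72 h. By the treatment labels they received TGF-β (0.1 ng/mL), IL-6 (20 ng/mL), anti-CD28 (1 µg/mL) and anti-CD3ε (0.25 µg/mL), and the growth protocol states a range for TGF-β. Both biological replicates have a library of H3K27ac ChIP DNA and one of input DNA, 2 of each kind. The deposited result is 1 peak list of 56285 positions, without scores, fold enrichments or values for single libraries, and its peak names carry the tag WT_Ddx5, which the labels do not explain. No value below therefore has a replicate error, read depth is unknown, and no test was made: the study holds 1 cell state, and genes are not replicates of it. Peaks were found at most 1000 bp from a gene end of 6 of 6 Th17 marker genes and 5 of 5 T cell marker genes. The same held for 0 of 4 B cell, 0 of 4 myeloid and 0 of 2 NK markers, and for 1 of 2 CD8 T cell markers. Windows of 20000 bp on each side did hold peaks at 3 of 4 B cell, 2 of 4 myeloid and 1 of 2 NK markers, with up to 2929, 4439 and 2779 bp under peaks.

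A Rab protein bound to GTP recruits motors, tethers and other effectors to the membrane it sits on. Exchange factors load the GTP and GTPase activating proteins end the signal. In T cells these switches are known to steer receptor recycling, cytokine secretion, granule release and lysosome traffic, and each Rab is known for a particular membrane, which is how the genes are grouped below.

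Most Rab genes carried H3K27ac at a gene end. A peak lay within 1000 bp of either annotated end in 49 of the 59 genes (83.1%), against 53.8% of all protein-coding genes, or 57.6% of them without the olfactory and vomeronasal receptor genes, a background added after the data were seen. Any peak in the window was found for 54 Rab genes (91.5%), against 70.9% of all. Inside the gene itself, 48 Rab genes (81.4%) had a peak, against 59.7%. The median Rab gene had 4 peaks and 3963 acetylated bp in its window (quartiles 1912 and 7497 bp), where acetylated bp are the bases that peaks cover; the median protein-coding gene had 2 peaks and 2399 bp. An acetylated length of at least 10000 bp was reached by 7 Rab genes (11.9%), against 11.3% of all, so the shares were close at the long end. Rab genes were also longer, with a median of 23210 bp against 17330 bp. As a share of the window, the medians were 5.70% for Rab genes and 3.23% for all genes.

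**Figure D1:**
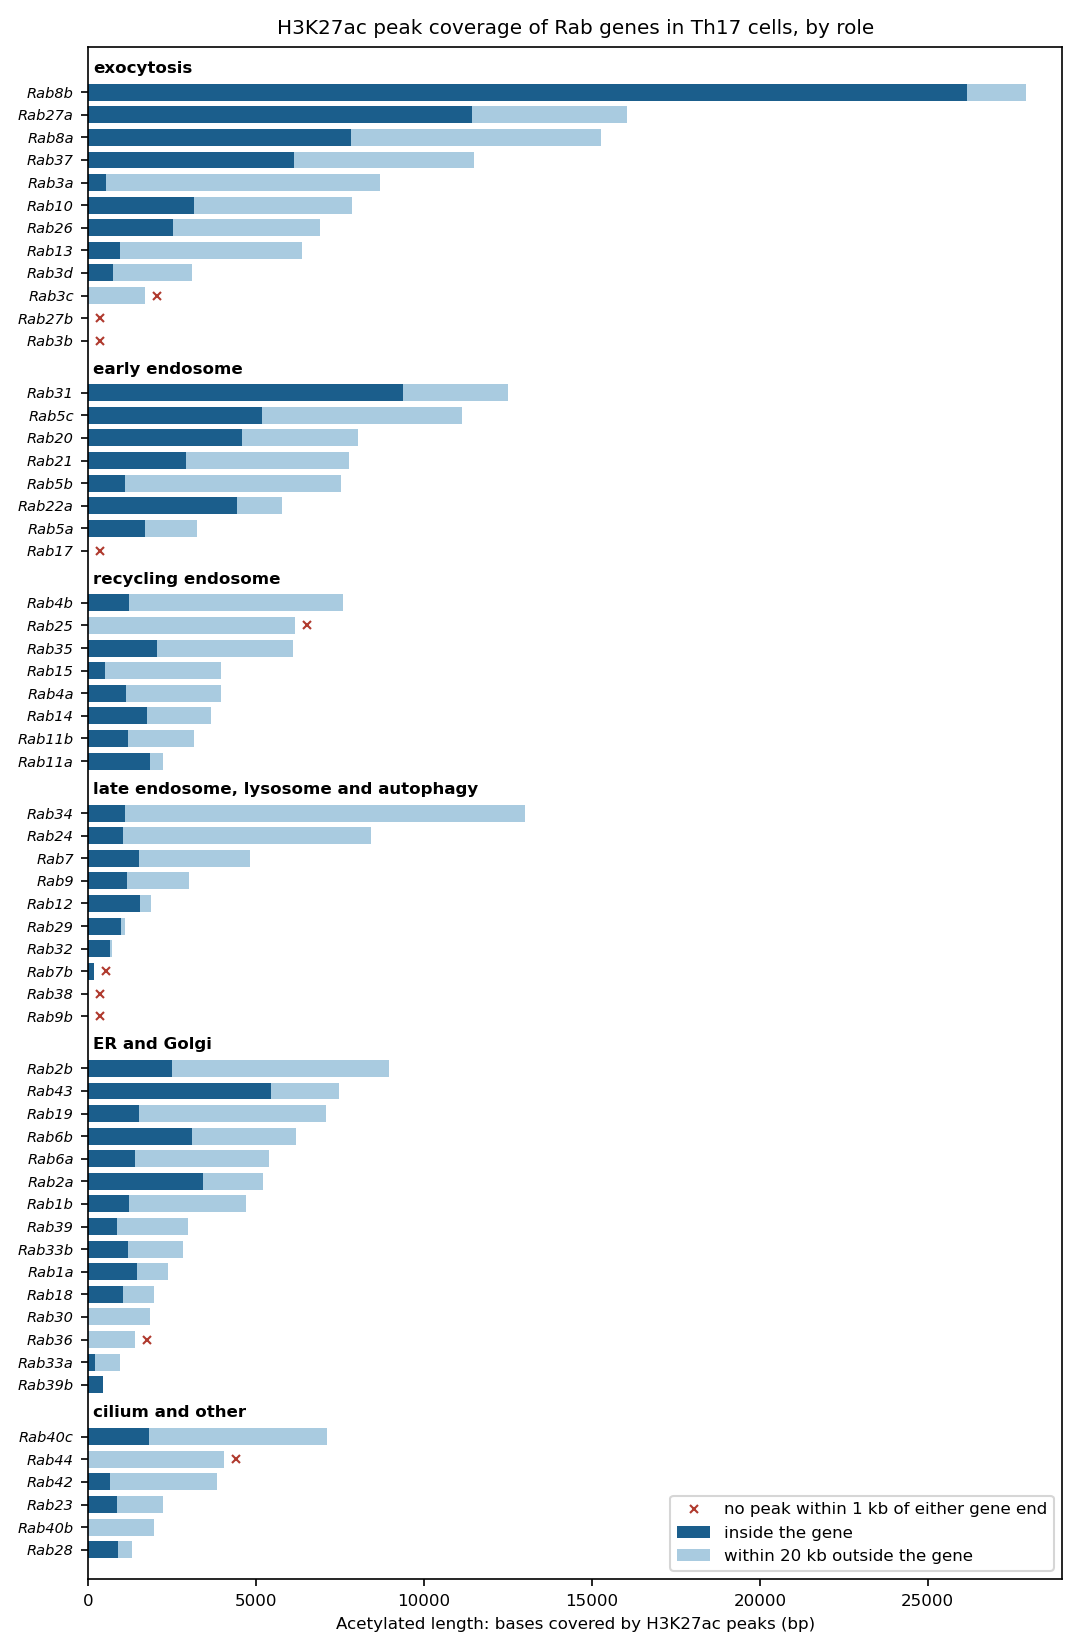
Acetylated length of each of the 59 Rab genes by the role of its protein, on the x axis in bp, split into bases inside the gene (dark) and within 20 kb outside it (light). A cross marks the 10 genes with no peak within 1000 bp of either gene end. Rab8b reaches 27918 bp, while Rab17, Rab3b, Rab9b, Rab27b and Rab38 are at 0.

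The promoter table used gives a strand and at least 1 start for 48 of the Rab genes, and a peak lay within 1000 bp of a start for 41 of them (85.4%), against 55.0% of all genes with a start there. The 7 without were Rab3b, Rab3c, Rab9b, Rab17, Rab25, Rab33a and Rab40b. For Rab40b, which encodes a Rab with a SOCS box known to work with ubiquitin ligases, the only peak in the window lay at the finish side, 768 bp beyond the gene and at the end of another coding gene. At Rab33a, whose product acts at the Golgi, the peak lay at the outer annotated gene end and not at the start in the promoter table. It too lay within 1000 bp of an end of another coding gene. The 11 Rab genes with no entry in that table are Rab2a, Rab4a, Rab7b, Rab18, Rab26, Rab27b, Rab30, Rab36, Rab37, Rab38 and Rab44, and for these the gene's start and finish were not told apart. Peaks at both annotated ends were found at 5 Rab genes (8.47%), against 8.77% of all.

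The 250 bases before a start are printed for 4 genes with a marked start and for the unmarked starts set beside them, because paralogs and alternative starts differ here. Sequences are from RefSeq (GRCm38.p6), 5′ to 3′, and capitals mark CG dinucleotides.

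With a peak at the start:
Rab8b, chr9:66919706-66919955, minus strand: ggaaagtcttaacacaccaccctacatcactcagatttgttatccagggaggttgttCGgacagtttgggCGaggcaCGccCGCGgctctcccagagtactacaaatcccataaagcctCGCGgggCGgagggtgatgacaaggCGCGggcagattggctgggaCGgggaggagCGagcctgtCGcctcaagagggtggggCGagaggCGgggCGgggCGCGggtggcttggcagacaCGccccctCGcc
Rab27a outer start, chr9:73044560-73044809, plus strand: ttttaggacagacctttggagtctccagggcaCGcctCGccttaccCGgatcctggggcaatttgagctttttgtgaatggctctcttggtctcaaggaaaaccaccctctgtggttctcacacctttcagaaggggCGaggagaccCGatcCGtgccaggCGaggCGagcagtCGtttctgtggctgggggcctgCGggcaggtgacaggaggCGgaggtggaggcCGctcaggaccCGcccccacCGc
Rab3a outer start, chr8:70754453-70754702, plus strand: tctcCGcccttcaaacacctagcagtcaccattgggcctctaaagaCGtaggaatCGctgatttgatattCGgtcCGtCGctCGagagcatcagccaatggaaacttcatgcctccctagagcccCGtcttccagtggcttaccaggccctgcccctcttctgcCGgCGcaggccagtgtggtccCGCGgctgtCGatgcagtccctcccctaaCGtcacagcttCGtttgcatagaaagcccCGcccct
Rab9, chrX:166479868-166480117, minus strand: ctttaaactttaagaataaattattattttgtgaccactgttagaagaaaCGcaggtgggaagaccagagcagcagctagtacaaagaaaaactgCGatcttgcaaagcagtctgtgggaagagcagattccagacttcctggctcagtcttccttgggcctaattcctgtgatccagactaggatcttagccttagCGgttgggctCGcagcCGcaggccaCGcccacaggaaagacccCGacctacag

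With no peak within 1000 bp of the start:
Rab27a inner start, chr9:73063898-73064147, plus strand: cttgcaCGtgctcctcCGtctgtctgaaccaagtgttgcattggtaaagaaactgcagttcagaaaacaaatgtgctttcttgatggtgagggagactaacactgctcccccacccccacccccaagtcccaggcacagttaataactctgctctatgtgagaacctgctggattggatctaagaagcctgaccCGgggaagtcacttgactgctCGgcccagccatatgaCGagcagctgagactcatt
Rab3b, chr4:108878820-108879069, plus strand: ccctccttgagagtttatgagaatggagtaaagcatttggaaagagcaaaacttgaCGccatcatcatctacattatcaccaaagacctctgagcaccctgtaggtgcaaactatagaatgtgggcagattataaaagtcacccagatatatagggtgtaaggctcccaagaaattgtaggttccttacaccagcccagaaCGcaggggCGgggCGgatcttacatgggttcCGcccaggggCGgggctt
Rab9b, chrX:136868557-136868806, minus strand: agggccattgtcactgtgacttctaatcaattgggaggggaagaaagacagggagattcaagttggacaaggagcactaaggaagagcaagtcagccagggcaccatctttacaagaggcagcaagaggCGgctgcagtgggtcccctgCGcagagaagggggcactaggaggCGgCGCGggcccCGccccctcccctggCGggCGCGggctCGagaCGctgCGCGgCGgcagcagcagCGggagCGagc

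The outer start of Rab27a has 14 CG dinucleotides in these 250 bases and its inner start, which holds no peak, has 5. Rab3a has 16 against 6 in Rab3b. The pair Rab9 and Rab9b runs the other way, with 7 CG dinucleotides before the marked start of Rab9 and 16 before the unmarked start of Rab9b.

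Over the full 300-base promoters (250 bases before the outermost start to 50 after it), the ratio of observed to expected CpG had a median of 0.774 in the 41 Rab genes with a peak there (quartiles 0.667 and 0.937) and 0.400 in the 7 without (0.322 and 0.574). All genes gave 0.787 with a peak and 0.231 without. The Rab groups overlapped: Rab42, Rab19, Rab32 and Rab9 had a peak at ratios of 0.302 to 0.425, while Rab40b had none at 0.688. GC content had medians of 63.3% with a peak and 58.3% without. The E-box CACGTG was in 5 of the 41 marked promoters (12.2%: Rab5a, Rab20, Rab21, Rab23 and Rab24) and 0 of the 7 others, against 10.5% of all marked promoters and 8.01% of all promoters. AGGTCA, the half-site of ROR-type nuclear receptors, was in 12.2% of marked Rab promoters, against 11.2% of all marked promoters. Over marked and unmarked promoters together the order turned, with 10.4% of the 48 Rab promoters against 14.4% of all. TATAAA turned in the same way, with 7.32% against 6.59% in marked promoters and 8.33% against 13.4% in all. TGANTCA did too, with 4.88% against 4.42% in marked promoters and 4.17% against 7.09% in all. TGACGTCA, in 1 marked Rab promoter, turned the other way, with 2.44% against 3.49% in marked promoters and 4.17% against 2.36% in all. CCGGAAGT was in 4.88% of marked Rab promoters, against 9.22% of all marked promoters, and in 4.17% against 5.34% over all. The palindromic NRF1 motif was in 0 Rab promoters, against 2.31% of all marked promoters and 1.35% of all. Each Rab share rests on 5 promoters or fewer, and differences between shares were not tested. Unmarked promoters were 7957 of all 17274, but 7 of the 48 Rab promoters, so shares over all promoters rest on different mixes. Of the 7957, AGGTCA was in 1433, TATAAA in 1705, TGANTCA in 813 and TGACGTCA in 82. Of the 9317 marked promoters of all genes, they were in 1048, 614, 412 and 325. The turns in order are therefore not read as a property of Rab promoters. N stands for any base, both strands were searched, matches that overlap another motif were kept, and a match describes the letters only.

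**Figure D2:**
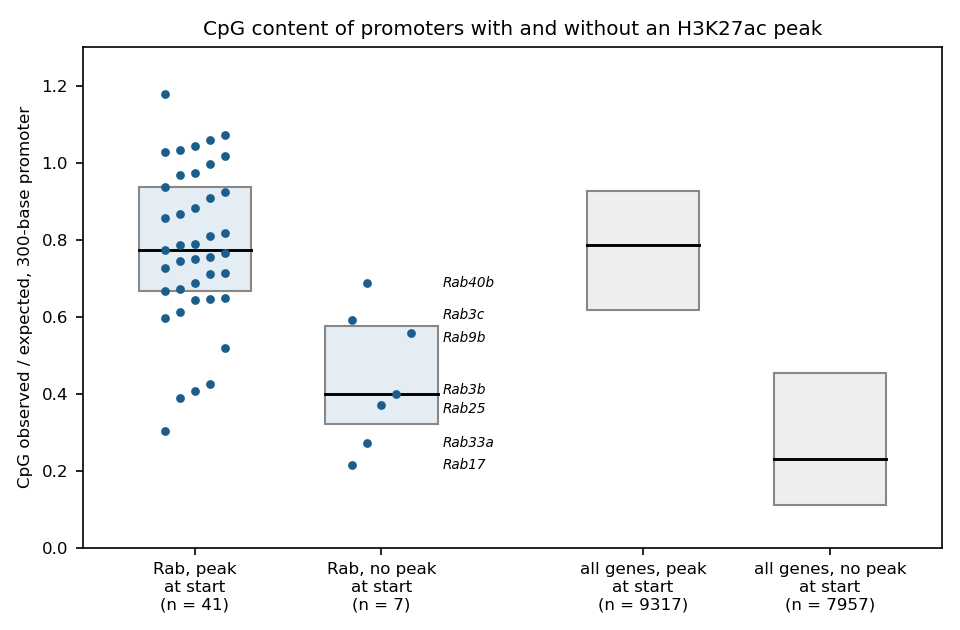
Ratio of observed to expected CpG (y axis, no unit) in 300-base promoters with and without a peak within 1000 bp of the outermost start. Points are Rab genes, boxes span the quartiles and lines are medians; the 41 marked Rab promoters have a median of 0.774 and the 7 unmarked ones 0.400, with overlap.

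At marked starts the peak covered the start base in 38 of 41 Rab genes (92.7%), against 91.4% of all genes with a peak at the start. The 3 exceptions were Rab20, Rab39 and Rab39b, where the nearest peak began downstream. The widest peak at a start had a median width of 1726 bp in Rab genes (range 438 to 8503 bp), against 1799 bp in all genes. More of the 1000 bp downstream than of the 1000 bp upstream was covered in 29 Rab genes (70.7%), against 60.3% of all. Medians were 1000 bp downstream and 749 bp upstream in Rab genes, and 1000 and 704 bp in all genes with a peak at the start. The most that could be covered on either side is 1000 bp. At 500 bp downstream 83.3% of the 48 Rab genes were in a peak, against 46.8% of all, and at 2000 bp downstream 12.5% against 10.6%. The profile falls to near the level of all genes within that distance, with 48 Rab genes behind each point. Peaks of at least 3000 bp at the start were found in 6 Rab genes (14.6%), against 18.5% of all, and the widest were at Rab8b (8503 bp, percentile 98.0 of such peaks) and Rab43 (5416 bp, percentile 94.9).

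**Figure D3:**
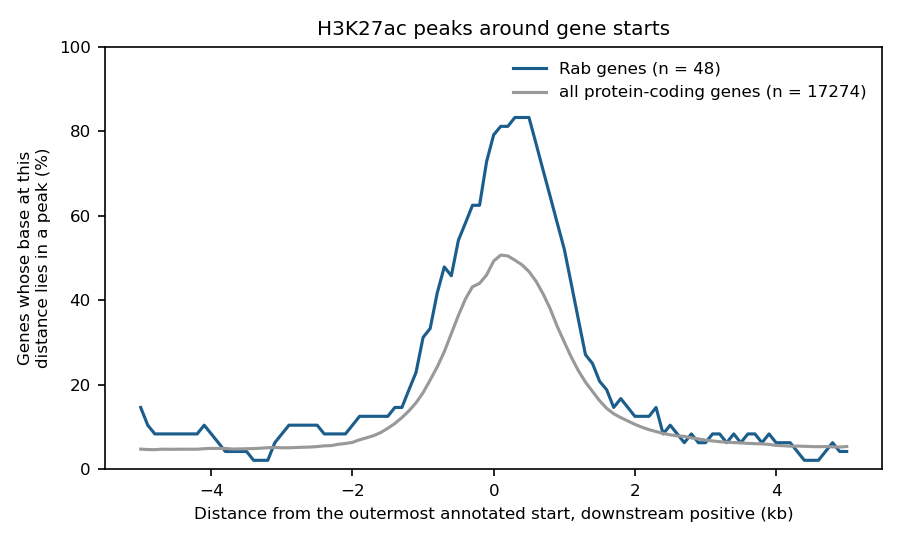
Share of genes (y axis, %) whose base at each distance from the outermost start (x axis, kb, downstream positive) lies in a peak, for 48 Rab genes and 17274 protein-coding genes, every 100 bp. Rab genes stand at 79.2% at the start itself and all genes at 49.3%.

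The exocytosis Rabs included the 3 genes with the greatest acetylated length, Rab8b, Rab27a and Rab8a. Of 12 genes, 9 had a gene-end peak and the median window held 7377.5 bp. Gene-end counts by role, here and below, are to be read beside 83.1% of all Rab genes and 53.8% of all protein-coding genes. The role groups hold only 6 to 15 genes, and differences between them were not tested. Rab8b and Rab8a, known to carry vesicles from the Golgi and recycling endosome to the plasma membrane, had 27918 and 15277 bp, at percentiles 98.8 and 95.0 of all genes. In Rab8b (chromosome 9, 66843609 to 66919705) 26184 of these bp lay inside the gene. A peak of 8503 bp spanned its start, and 11 further peaks lay in the gene body, the widest of 5810 bp from 18958 to 24767 bp downstream of the start. In Rab8a (chromosome 8, 72161200 to 72181366) the start lay in a peak of 2362 bp, and a body peak of 4888 bp ran from 5211 to 10098 bp downstream. Rab8a was the gene with the higher share of its window acetylated, 25.4% against 24.0% for Rab8b.

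Rab27a, which docks lytic granules at the synapse of cytotoxic T cells and is mutated in Griscelli syndrome, had 16028 bp in 18 peaks (chromosome 9, 73044810 to 73097623; percentile 95.5). Of these, 11416 bp in 13 peaks lay inside the gene, and no peak lay within 1000 bp of its inner start. Its paralog Rab27b (chromosome 18, 69979131 to 70141633), known from exosome and granule secretion, had no peak in its window, and the nearest was 249872 bp away. Rab37, known from mast cell granules, had 11472 bp in 9 peaks (chromosome 11, 115091331 to 115162773), and its 4108 bp gene-end peak also touched the end of another coding gene. Rab10, which brings glucose transporter vesicles to the surface in fat cells, had 7851 bp. Rab13, known from tight junctions and from integrin traffic in lymphocytes, had 6371 bp, only 936 bp of it inside the gene. Rab26 had 6904 bp.

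Among the Rab3 genes, the vesicle release Rabs of neurons and endocrine cells, the window of Rab3a held 8691 bp and that of Rab3d 3084 bp. Of this, 509 bp lay inside Rab3a and 717 bp inside Rab3d. Rab3b (chromosome 4, 108879070 to 108943324) had no peak in its window, and Rab3c (chromosome 13, 110054187 to 110280996) had 1677 bp, all of it beyond the finish, the nearest peak 8924 bp from the gene.

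Early endosome Rabs had the highest median window length of the role groups, 7642.5 bp, close to 7377.5 bp for exocytosis, and a gene-end peak at 7 of 8 genes. As a share of the window the order turned, with medians of 9.62% for early endosome and 11.2% for exocytosis Rabs. Rab31, which works between the Golgi and endosomes, had 12494 bp in 13 peaks (chromosome 17, 65651726 to 65772752). Its start peak was 941 bp wide, and 10 body peaks followed, the widest of 2995 bp from 30410 to 33404 bp downstream. Rab5c, one of the Rab5 proteins that drive early endosome fusion, had 11120 bp (chromosome 11, 100715003 to 100738215), with a start peak of 3938 bp. Its paralogs Rab5b and Rab5a had 7531 and 3225 bp. Rab20, known from phagosome maturation, had 8040 bp, and Rab22a had 5756 bp with a 2443 bp peak from 18497 bp downstream of its start. Rab21, known from integrin endocytosis, had 7754 bp. Rab17, a Rab of epithelial transcytosis, had no peak in its window (chromosome 1, 90958133 to 90969673), the nearest lying 28707 bp away.

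**Figure D4:**
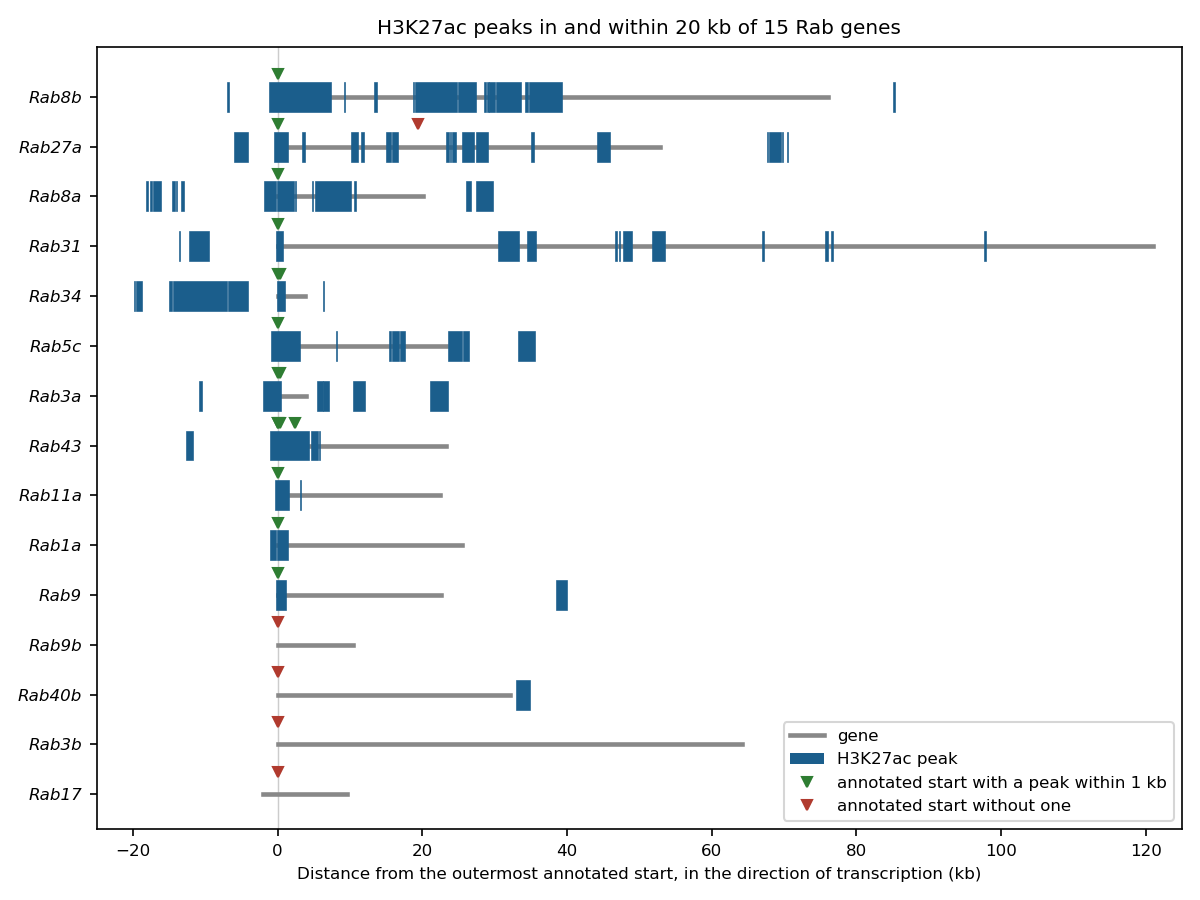
Peaks (blue) in and within 20 kb of 15 Rab genes, drawn by distance from the outermost annotated start in the direction of transcription (x axis, kb); grey lines are genes and triangles are annotated starts with (green) or without (red) a peak within 1000 bp. Rab8b, Rab27a and Rab31 carry 11, 12 and 10 body peaks, and Rab9b, Rab3b and Rab17 carry none.

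Peaks in gene bodies were unevenly shared. Of 75 such peaks, away from annotated ends and starts, 33 lay in the 3 genes Rab8b, Rab27a and Rab31, and 23 Rab genes had any. No share over all protein-coding genes stands beside these counts. The 3 genes are long, with 76097, 52814 and 121027 bp against a Rab median of 23210 bp. Close peaks were counted apart, such as those of Rab8b ending at 66884963 and starting at 66885079. Whether length or splitting of peaks accounts for the uneven counts was not tested. Body peaks had a median width of 435 bp, against 1673 bp for the 63 peaks at gene ends of the Rab genes.

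Recycling endosome Rabs had a gene-end peak at 7 of 8 genes and a median of 3960 bp. Rab4b, which returns receptors quickly to the surface, had 7597 bp (chromosome 7, 27168433 to 27178883), of which 1197 bp lay inside the gene, and Rab4a had 3957 bp. Rab35, known to act at the immunological synapse, had 6089 bp with a start peak of 2886 bp. Rab11a and Rab11b, the Rabs of slow recycling, had 2231 and 3143 bp and a peak at the start of each. Rab14 had 3642 bp. Rab15 had a peak at 1 of its 4 starts, the outer one. Rab25, the epithelial relative of Rab11, had 6148 bp in its window but 0 bp inside the gene (chromosome 3, 88542029 to 88548279), and the nearest peak lay 3939 bp away.

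Rabs of the late endosome, lysosome and autophagy had the lowest median in the window, 1476 bp. A gene-end peak was found at 7 of 10 genes, beside 83.1% of all Rab genes and 53.8% of all protein-coding genes. Inside the gene their median was 994.5 bp, above the 747 bp of Rabs of the cilium and other roles. Rab34, known from lysosome positioning and cilium formation, had 13009 bp (chromosome 11, 78188427 to 78192193) and the highest acetylated share of the window among the Rab genes, 29.7%. Only 1079 bp lay inside the gene, and 11893 of the 11930 bp in its flanks lay in or within 1000 bp of other coding genes. Rab24, known from autophagy, had 8417 bp, 1019 bp of it inside. Rab7, which drives fusion of late endosomes with lysosomes, had 4812 bp in 10 peaks (chromosome 6, 87999106 to 88045270), with a peak of 1629 bp over both its starts, while Rab7b had a single peak of 158 bp in the gene (chromosome 1, 131688681 to 131715443). Rab9, of the route back from late endosomes to the Golgi, had 2985 bp (chromosome X, 166457251 to 166479867) and Rab9b none (chromosome X, 136858147 to 136868556). Rab32 and Rab29 each had 1 peak, at the start, of 688 and 1076 bp. Rab12 had 1876 bp. Rab38, needed for pigment in mouse melanosomes, had no peak within 151069 bp.

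Rabs of the ER and Golgi were marked at a gene end in 14 of 15 genes, with a median of 2956 bp. Rab2b, of traffic between the ER and Golgi, had 8961 bp (chromosome 14, 52261759 to 52279395), of which 2497 bp lay inside the gene. Rab43, a Golgi Rab, had 7463 bp (chromosome 6, 87788853 to 87812164), 5443 bp of it inside, with all 4 of its starts under the 5416 bp peak. Rab1a and Rab1b, needed for ER export, had 2373 and 4707 bp, and Rab6a and Rab6b, of retrograde Golgi traffic, 5383 and 6197 bp. Rab19 had 7072 bp, Rab2a 5214 bp, Rab39 2956 bp, Rab33b 2804 bp, Rab18 1960 bp, Rab30 1825 bp, Rab33a 931 bp and Rab39b 438 bp. Rab36 had 1385 bp and was the member with no gene-end peak. Among the remaining Rabs, 5 of 6 had a gene-end peak and the median was 3037.5 bp. Rab40c had 7115 bp, Rab42 3840 bp, Rab23, known from Hedgehog signalling, 2235 bp and Rab28 1311 bp. Rab44, a large Rab known from mouse mast cells, had 4035 bp in its window and 0 bp inside the gene.

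Paralogs did not always share the mark. Of 14 Rab numbers with more than 1 gene (31 genes), 10 had a gene-end peak at every member and 4 were split. The share of single genes with such a peak was 83.1% over all Rab genes and 53.8% over all protein-coding genes. Split sets were not counted among other paralogs, and whether 4 of 14 departs from what the Rab share alone gives was not tested. The split sets were Rab3 (Rab3a and Rab3d with, Rab3b and Rab3c without), Rab7 (Rab7 with, Rab7b without), Rab9 (Rab9 with, Rab9b without) and Rab27 (Rab27a with, Rab27b without). Among the 10, the Rab33 and Rab40 sets count through peaks away from a listed start: Rab33a and Rab40b had none within 1000 bp of theirs, while Rab33b and Rab40c did. The 5 genes with no peak in the window can be set beside the running numbers in the peak names, which follow position and skip 15164 values up to 71449. Between the listed peaks on each side of the window, 0 numbers were skipped at Rab17, Rab3b and Rab38, 1 at Rab27b and 2 at Rab9b. What the skipped numbers held is not given in the sources used here.

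Windows often held a neighbour's peaks. Over all Rab genes, 177050 acetylated bp lay in flanks and 134088 bp inside the genes. Of the flank bp, 68.5% lay in or within 1000 bp of another coding gene. No such share for the windows of all protein-coding genes stands beside it. With peaks left out that also lay at an end of another coding gene, an alternative added with the data in view, a gene-end peak was found for 38 Rab genes (64.4%), against 39.3% of all. Long acetylated domains, which are neighbouring peaks stitched into clusters that cover over 13241 bp, overlapped 8 Rab genes (13.6%), against 6.37% of all. Rab8b supplied 95.0% of the covered bp of its domain and Rab27a 82.0%. The share was 40.3% for Rab8a, 29.3% for Rab37 and 25.7% for Rab43. It was 5.97% for Rab13, 5.96% for Rab34 and 2.33% for Rab3a, whose domain also spans Il12rb1 and Pik3r2. The higher share did not hold in every setting. With stitching at 5000 bp, 2 Rab genes lay in a domain (3.39%: Rab8b and Rab34), against 4.06% of all genes. With gene-end peaks left out, 1 did (1.69%: Rab8b), against 2.12%. With peaks of at least 500 bp, 4 did (6.78%: Rab8b, Rab34, Rab3a and Rab43), against 4.93%.

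Most genes whose products load, switch off and read out Rabs were marked too. Of 120 such genes listed by role, 105 had a gene-end peak, against 53.8% of all protein-coding genes, and the median window held 5425 bp. Among genes for GDI, escort and prenylation proteins, 7 of 8 had one, led by Chm (27732 bp), which encodes a Rab escort protein, and Chml had none. Among exchange factors 32 of 35 did, led by Rin3 (16068 bp), a Rab5 exchange factor, and Trappc9 (15337 bp), while Dennd5b and Dennd6a did not. Among GTPase activating proteins 30 of 34 did, led by Rabgap1l (31801 bp) and Evi5 (27794 bp), and Sgsm1 and Tbc1d14 did not, although Tbc1d14 had 18051 acetylated bp inside the gene. Among effectors and tethers 36 of 43 did, led by the exocyst gene Exoc2 (75893 bp, 62347 bp of it inside the gene) and Rab11fip4 (27403 bp). The 7 effector genes without a gene-end peak were Mlph, Myrip, Rims1, Rims2, Rph3a, Sytl4 and Sytl5, all named here after their values were seen. Other effectors of the same Rab3 and Rab27 type on the list had one, among them Sytl3 (10001 bp), Sytl1 (8877 bp), Unc13d (7343 bp) and Sytl2 (6591 bp). Inside the gene lay 369 bp for Sytl3, 1383 bp for Sytl1, 4056 bp for Unc13d and 6487 bp for Sytl2, the rest being in the flanks. Genes said to lead a class have its greatest acetylated lengths, whatever the length of the gene. Trappc9 spans 471619 bp with 2.998% of its window acetylated, below the 3.23% median of all genes. Rabgap1l spans 574303 bp, at 5.18%. Shares were higher at Trappc4 (28.8%) and Dennd4b (25.2%), shorter exchange factor genes. Most of that length lay in the flanks, with 1512 of 12594 bp inside Trappc4 and 3435 of 14014 bp inside Dennd4b. Chm and Exoc2 led their classes by share as well.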

How the data were processed

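H3K27ac ChIP-seq was made on 2 IP and 2 input libraries. Per the submitters' processing notes, the tools were MACS2 2.2.6, deepTools, SAMtools 1.9 and Bowtie2 2.3.4.1, and the build GRCm38 (mm10). The series' design text says that inputs were the controls when peaks were called. The sources used here give no threshold, filter or pooling. The deposited file holds peak positions in bp and names, and no other values, with starts taken as counted from 0 and given here from 1, because the narrowest of all peaks is then exactly 100 bp wide in 788 cases. Depth per library is unknown. All but 1 of the 56285 peaks (56284) were on an autosome or X and were used.

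Genes and promoters came from RefSeq tables of GRCm38.p6. Promoter orientation was checked on 675 overlapping pairs from opposite strands, which held the same bases. Overlap meant at least 1 bp. Overlap and stitching code was checked on simulated intervals. Python 3.11.15, numpy 2.4.6, pandas 2.3.3, Biopython 1.88 and matplotlib 3.10.9 were used. Protein sequences were not used here.

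The Rab genes, roles and lists were chosen with earlier results of these data known. The rule for genes described in full took the 12 with the longest acetylated length, the 2 longest of each role, paralogs that differ in gene-end peaks and genes in a domain; for machinery genes it took the 2 longest of each class and, alphabetically, up to 2 lacking a gene-end peak. A machinery gene under this rule is not reported here. Other names were chosen after their values were seen. Alternatives were other windows, flanks and stitching, peak midpoints, peaks of at least 500 bp, merged peaks and starts only.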

Additional observations from a re-analysis of the deposited data

How the results depend on the processing

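The count of 49 Rab genes with a gene-end peak was 47 with a 500 bp window, 49 with 2500 bp, 43 by peak midpoint, 46 with peaks of at least 500 bp and 41 of 48 at starts, against 48.0 to 57.2% of all genes. The 105 machinery genes ranged from 92 to 106 with the other windows, peak midpoints and peaks of at least 500 bp. At starts they were 90, counted only among machinery genes with a start in the promoter table, against 55.0% of all genes with one. How many machinery genes have such a start is not given here, so 90 is not to be compared with 105. Without peaks at other coding genes' ends, 86 machinery genes had a gene-end peak, against 39.3% of all. Rab genes with any peak in the window numbered 48 to 56 over the flanks and widths tried, against 54 as reported. The share of all genes ran from 59.7% with no flanks (48 Rab genes) to 77.5% with 50000 bp flanks (56 Rab genes). It was 63.8% with 5000 bp flanks (51 Rab genes) and 66.5% with peaks of at least 500 bp (52 Rab genes).

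The median acetylated length of 3963 bp follows the flank: 1150 bp with no flanks, 2231 bp with 5000 bp, 7550 bp with 50000 bp and 3669 bp with peaks of at least 500 bp, beside 704, 1374, 4584 and 2109 bp over all genes. The median of 4 peaks was 3 with peaks at most 1000 bp apart merged and 2 with peaks of at least 500 bp. It was 2 with 5000 bp flanks and 8 with 50000 bp flanks. Over all genes the median of 2 peaks became 2, 1, 1 and 5 in the same order. The 8 Rab genes in a domain (13.6%, against 6.37% of all genes) were 2 with stitching at 5000 bp (3.39% against 4.06%) and 1 without gene-end peaks (1.69% against 2.12%), so the direction turned in both. They were 4 when peaks under 500 bp were dropped (6.78% against 4.93%). The cause was not tested. Rab8b was longest in all 5 settings of flank and width, and of the 12 longest genes 6 stayed among the 12 longest with 50000 bp flanks and 8 with 5000 bp or none. No paired analysis was possible because the 1 deposited list has no value per replicate.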
